A study of Mus musculus with 61 samples.

Results

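Transcripts of 10 genes of glycolysis and lactate export were followed in mouse CD4 T cells activated with or without interleukin-27 (IL-27). The members were Slc2a1, Hk1, Hk2, Pfkl, Pfkp, Aldoa, Pgk1, Pkm, Ldha and Slc16a3, taken as every probe set whose platform gene symbol is one of these names and no other. They had 20 probe sets, out of 20173 probe sets of 1 gene and 12291 genes on the arrays. The brightest probe set stood for its gene, and all 10 members were among the 7163 genes that passed the filter on low values on the larger array set.

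Glycolysis takes up glucose and splits it into pyruvate, yielding energy and carbon skeletons, and naive T cells are known to raise it when they are activated. Slc2a1 (GLUT1) carries glucose into the cell, and hexokinases (Hk1, Hk2) trap it as glucose-6-phosphate. Phosphofructokinase (liver-type Pfkl, platelet-type Pfkp) commits the sugar to breakdown, aldolase (Aldoa) cleaves it, and phosphoglycerate kinase (Pgk1) and pyruvate kinase (Pkm) each harvest ATP. Lactate dehydrogenase (Ldha) turns pyruvate into lactate, and Slc16a3 (MCT4) exports that lactate with a proton. Many of these genes are known targets of the transcription factors HIF-1 and MYC, which bind the short motifs ACGTG and CACGTG.

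RNA came from naive CD4 T cells of C57BL/6 mice, cultured with anti-CD3 and a second antibody written as anti-CD8, each at 1 µg/ml per the labels. IL-27, a heterodimeric cytokine related to IL-12, was given to the IL27 arm at 25 ng/ml, although this protocol text, and a source description as Tr1 cells, is attached to the ctrl arrays too, so the arm was read from the array title. HT_MG-430A arrays, of the Affymetrix 430A design, numbered 26 in each of the arms IL27 and ctrl and covered 18 times between 0.5 and 72 h. Each arm had a pair of arrays at 8 of these times and a single array at the other 10. A second set of 9 Mouse430A_2 arrays held 1 IL27 and 1 ctrl array at 4, 16 and 48 h, single arrays with the names GFPP and GFPN at 48 h, and a ctrl array at 0 h. Hours are assumed, since the titles give times without a unit, and GFPP, GFPN and a title suffix d on the second arrays of a time are not explained in the sources used here. The sources used here do not say whether arrays stem from different cultures or mice. All p-values therefore measure the spread between these arrays only, which may be technical. Except in fits of single times, that spread also holds variation between times, since arrays of different times serve as repeats.

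The median intensity of an array was 28.0 to 36.6 on HT_MG-430A and 70.7 to 78.9 on Mouse430A_2. Precision is limited by how many arrays there are. The labelled cell type matched its markers, since the 7 measured CD4 T cell markers of 8 listed lay above the array median on every HT_MG-430A array. Of 7 measured B cell markers only Ighm did so, and of 4 NK cell and 4 erythroid markers none did. Of 12 myeloid markers Lyz2 and Mpeg1 did so on the early arrays alone, and of 2 CD8 T cell markers Cd8b1 did so. In the late arrays the summed myeloid markers spanned 159 to 338 in IL27 cells and 170 to 271 in ctrl cells, and the summed CD4 T cell markers spanned 9485 to 16302 in IL27 cells and 8419 to 13188 in ctrl cells. NK cell marker sums there reached 240 in IL27 cells and 68.0 in ctrl cells, and CD8 T cell marker sums ran between 65.8 and 151 in IL27 cells and between 110 and 326 in ctrl cells. By limma (adjusted p under 0.05), 2 of 7 CD4 T cell markers were lower in IL27 cells early (2.32% of all genes differed). In the middle window 1 was higher and 2 were lower (10.7%), and late 3 were higher and 1 was lower (18.5%). Without the pair of arrays at 48 h, Cd4 was lower in each window, and Cd247, Cd28 and Cd5 were higher late. Cd8b1 was lower in the middle window (-0.58, log2) and late (-0.62). The part of these markers in the results was not tested.

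Both ctrl arrays at 12 and 48 h stood apart. The 12 h ctrl array correlated at most 0.871 with any other array, against at least 0.9765 for the remaining arrays. The 48 h ctrl array held the highest value of all 26 ctrl arrays for 9 of the 10 members (all but Aldoa), whereas it did so for 4.17% of all 7163 genes. Results are therefore given with and without the 48 h pair of arrays, and the 12 h ctrl array was left out in a further fit.

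Promoter windows are shown because most members climbed together over the culture and several differ in the HIF-1 and MYC motifs. RefSeq's table (GRCm38.p6) gave 15 windows for the 10 members, each covering the 250 bases before a transcript start, 5′ to 3′ on the gene's strand. A selection of 5 is printed, with ACGTG or its reverse complement CACGT in capitals: Slc2a1 at chr4:119108495-119108744, Hk2 at chr6:82774455-82774704 on the minus strand, Pfkp at chr13:6648772-6649021 on the minus strand, Ldha at chr7:46845554-46845803 and Slc16a3 at chr11:120948817-120949066.
Slc2a1: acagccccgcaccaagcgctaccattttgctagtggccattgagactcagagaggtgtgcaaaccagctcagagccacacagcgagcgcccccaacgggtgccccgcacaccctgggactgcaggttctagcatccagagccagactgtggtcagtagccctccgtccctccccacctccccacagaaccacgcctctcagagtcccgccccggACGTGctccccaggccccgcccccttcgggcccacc
Hk2: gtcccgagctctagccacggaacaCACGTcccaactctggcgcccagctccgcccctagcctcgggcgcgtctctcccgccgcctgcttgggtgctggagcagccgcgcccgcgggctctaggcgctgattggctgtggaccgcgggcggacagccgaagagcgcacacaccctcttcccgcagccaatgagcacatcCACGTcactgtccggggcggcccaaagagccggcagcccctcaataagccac
Pfkp: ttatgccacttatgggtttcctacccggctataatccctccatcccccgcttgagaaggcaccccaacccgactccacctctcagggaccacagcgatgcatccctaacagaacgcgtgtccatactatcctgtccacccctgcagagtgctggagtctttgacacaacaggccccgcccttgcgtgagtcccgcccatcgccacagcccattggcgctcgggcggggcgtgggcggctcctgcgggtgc
Ldha: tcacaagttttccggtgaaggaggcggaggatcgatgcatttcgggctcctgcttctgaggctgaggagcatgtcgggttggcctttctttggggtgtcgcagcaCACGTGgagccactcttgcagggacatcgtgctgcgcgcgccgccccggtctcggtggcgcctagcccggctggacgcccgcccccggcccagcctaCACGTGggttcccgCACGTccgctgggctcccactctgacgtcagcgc
Slc16a3: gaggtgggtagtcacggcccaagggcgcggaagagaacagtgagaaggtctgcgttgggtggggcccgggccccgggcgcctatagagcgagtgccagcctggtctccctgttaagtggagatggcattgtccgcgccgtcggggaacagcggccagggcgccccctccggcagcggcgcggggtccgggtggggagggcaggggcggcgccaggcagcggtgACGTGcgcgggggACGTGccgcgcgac

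ACGTG, on either strand, was present in windows of 7 members (Slc2a1, Hk2, Aldoa, Pgk1, Pkm, Ldha and Slc16a3) and in no window of Hk1, Pfkp or Pfkl. In all, 53.3% of the 15 member windows held it, with 1 Aldoa site counted in 2 overlapping windows, against 16.6% of all 32851 windows of this length and 23.1% of the 7606 windows of tested genes. CACGTG, which contains ACGTG on both strands, occurred in Ldha alone, against 6.02% of all windows and 8.9% of those of tested genes. TTCNNNGAA, the motif that STAT proteins bind, occurred in no member window and in 7.02% of all windows and 5.73% of those of tested genes. A match shows that these letters stand in the window, not that a factor binds there.

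The first question was how these genes behaved as the cells were activated. Levels are MAS5 intensities on a linear scale, and differences are of log2(intensity + 32), so that changes of dim genes such as Slc16a3 come out too small. Times were grouped as early (0.5 to 4 h, 5 arrays per arm), middle (8 to 20 h, 9 arrays per arm) and late (25 to 72 h, 12 arrays per arm). Differences between windows were tested with limma across all 7163 genes, with adjustment after Benjamini and Hochberg, and genes with an adjusted p under 0.05 count as called.

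**Figure D1:**
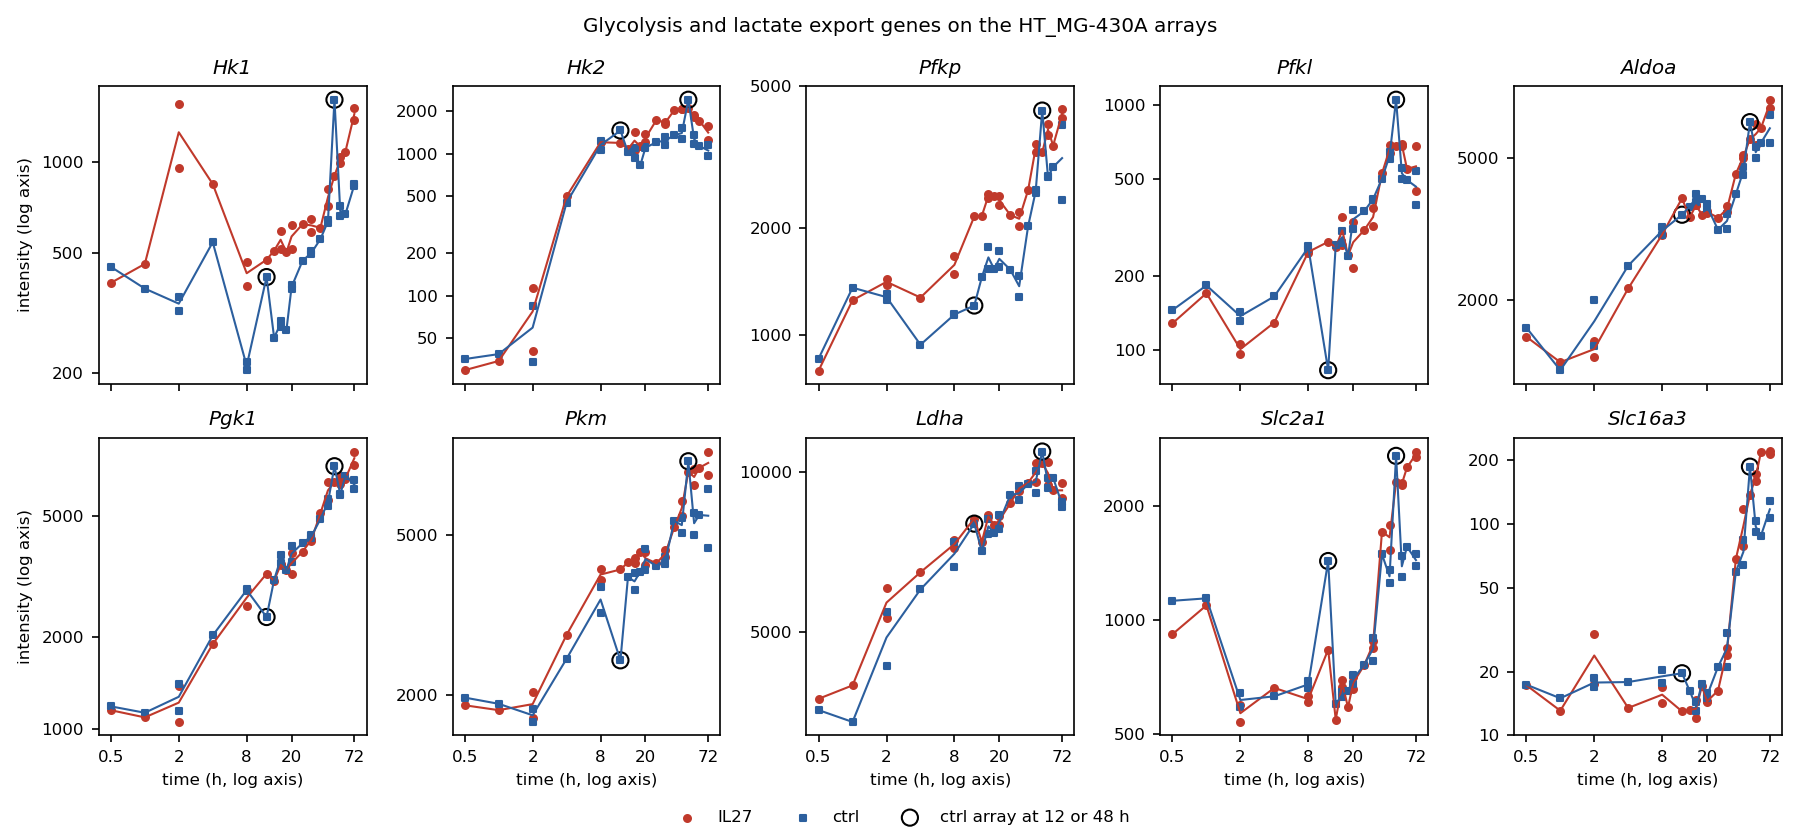
Intensity of each gene on the 52 HT_MG-430A arrays against time in hours (both axes logarithmic), with a point per array, IL27 as red circles, ctrl as blue squares, lines through the means per time, and black rings around the ctrl arrays at 12 and 48 h. Hk2 climbs within 8 h, Slc2a1 and Slc16a3 from 36 h, and the ringed 48 h array lies above the other ctrl arrays in every panel except that of Aldoa.

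Most members rose over the culture in both arms, but at different times for different genes. No unstimulated cultures were among the arrays, so the part of activation, as against time in culture, was not tested. From early to middle, 7 members rose and Hk1 fell in IL27 cells (background 66.2% of all genes called, 37.4% higher and 28.8% lower), and 6 members rose in ctrl cells (background 66.4% called, 35.8% higher). From middle to late, 9 members rose in IL27 cells (background 57.1% called, 27.4% higher) and 9 rose in ctrl cells (background 50.3% called, 24.6% higher). The 9 include Slc16a3, which passed the filter on low values through the late arrays where it is high and so had to differ. Hk2 was the member not called for the second step in either arm. Its difference was 0.55 ± 0.24 in IL27 cells (limma adjusted p = 0.051) and 0.26 ± 0.24 in ctrl cells (limma adjusted p = 0.39). In IL27 cells Hk2 was called in 10 of 28 alternative fits. The median member difference of this step was 0.65 in IL27 cells and 0.75 in ctrl cells, against -0.02 and -0.01 over all genes.

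Hk2, the inducible hexokinase, had the largest called difference of the 10 between the early and the middle window. It stood at 29.9 intensity units in IL27 cells and 35.8 in ctrl cells at 0.5 h, near the array medians. By 4 h it was at 500 and 452, and at 8 h the paired arrays read 1199 and 1205 in IL27 cells and 1068 and 1231 in ctrl cells. The early to middle difference was 3.38 ± 0.31 in IL27 cells and 3.30 ± 0.31 in ctrl cells (SE, limma adjusted p = 5.4e-13 and 8.7e-13). Most of the climb of Hk2 thus took place by 8 h in both arms.

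Ldha, Pgk1, Pkm and Aldoa, the abundant enzymes of the lower pathway, ended higher than they began in both arms. Averaged over 0.5 to 2 h, Pgk1 had an intensity of 1173 ± 149 in IL27 cells and 1218 ± 125 in ctrl cells (SD, n = 4 arrays), and over 54 to 72 h it had 7050 ± 701 and 6242 ± 411 (SD, n = 5 arrays). That is a 6.01-fold and a 5.12-fold change. Aldoa changed 4.38-fold in IL27 cells and 3.48-fold in ctrl cells over the same span, Pkm 3.88-fold and 2.96-fold, and Ldha 2.0-fold and 2.21-fold. Levels of different genes are not compared with each other, since each probe set has its own brightness.

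Both carriers rose in the second step and were not called in the first. Slc2a1 had its highest early value at 1 h, with 1095 in IL27 cells and 1143 in ctrl cells. It then dipped to 539 and 598 in IL27 cells and to 641 and 591 in ctrl cells at 2 h, and climbed again at 36 h to 1716 in the IL27 array and 1494 in the ctrl array. Slc16a3 stayed between 12.1 and 30.3 in IL27 cells and between 13 and 20.3 in ctrl cells up to 20 h. At 36 h it read 68.4 in IL27 cells and 59.5 in ctrl cells, and over 54 to 72 h it averaged 197 ± 28.6 in IL27 cells and 104 ± 15.9 in ctrl cells (SD, n = 5 arrays). No fold over the first hours is given for Slc16a3, since it was then mostly below the array median. Slc16a3 lay above the array median on 19 of the 52 arrays, 9 late IL27 arrays, 9 late ctrl arrays and 1 IL27 array at 2 h, so it passed the filter through the late arrays.

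The isoforms of phosphofructokinase and of hexokinase had unlike courses. Pfkl rose between early and middle in IL27 cells (0.96 ± 0.21) and in ctrl cells (0.61 ± 0.21), and rose again from middle to late. Pfkp rose between early and middle in IL27 cells (0.82 ± 0.20, limma adjusted p = 0.00043), and in ctrl cells its difference was 0.34 ± 0.20 (adjusted p = 0.13). Hk1, the constitutive hexokinase, fell by 0.54 ± 0.23 in IL27 cells between these windows (adjusted p = 0.038). In ctrl cells its difference was -0.41 ± 0.23 (adjusted p = 0.11). The Hk1 call in IL27 cells was lost in 6 of 28 alternative fits, over which the difference ran from -0.76 to -0.09. No member other than Hk1 fell in either step of either arm.

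The central question was where IL-27 set the arms apart. Over all 18 times 4 members were higher in IL27 cells and none was lower, against a background of 17.8% of genes called (6.85% higher). Hk1 differed by 0.56 ± 0.09 (limma adjusted p = 1.1e-05), Pfkp by 0.39 ± 0.05 (6.2e-07), Hk2 by 0.27 ± 0.07 (0.0029) and Pkm by 0.17 ± 0.04 (0.0024). Hk1 was higher in IL27 cells at 16 of 18 times, Pfkp at 15, and Hk2 and Pkm at 14 each. Ldha, not called over all times, was also higher at 15, and the remaining members at 6 to 9. Without the 48 h pair Ldha joined the called members (0.06 ± 0.02, limma adjusted p = 0.043), with 7.14% of genes higher.

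Early, the member that stood out was Hk1. Its intensity in IL27 cells was 399 at 0.5 h, 461 at 1 h, 960 and 1557 at 2 h and 848 at 4 h. In ctrl cells it was 451 at 0.5 h, 382 at 1 h, 359 and 322 at 2 h and 544 at 4 h. From 1 h on each IL27 value exceeded its ctrl counterpart, and at 2 h the arrays of the arms did not overlap.

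The early difference of Hk1 was 0.84 ± 0.19 (SE, 5 arrays per arm, limma adjusted p = 0.0077). At 2 h alone it was 1.75 ± 0.15 (limma adjusted p = 5.9e-08), the largest difference of any member at any time, and 2.16% of genes were called higher there. Without 2 h the early difference was 0.23 with an adjusted p of 1.0, and without the arrays of suffix d it was 0.55 (adjusted p = 0.44). Ldha was the other called member early (0.17 ± 0.05, limma adjusted p = 0.048, background 2.32% of genes called, 1.79% higher). Its values were 3750, 3974, 5327, 6048 and 6486 in IL27 cells and 3571, 3392, 5455, 4325 and 6021 in ctrl cells in order of time, and the call was lost in 23 of 29 alternative fits. Among the other 8 members the differences ran from -0.25 (Pfkl) to 0.10 (Pfkp).

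In the middle window Hk1 stayed higher and Pfkp joined it, against a background of 10.7% of genes called (4.82% higher). Pfkp had a lowest, median and highest intensity of 1487, 2320 and 2492 in IL27 cells, against 1139, 1531 and 1768 in ctrl cells. Apart from the 2 arrays at 8 h, every IL27 array lay above every ctrl array of the window. The difference was 0.57 ± 0.08 (SE, 9 arrays per arm, limma adjusted p = 1.2e-06), a 1.49-fold change.

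Hk1 spanned 391, 510 and 619 (lowest, median, highest) in IL27 cells, against 205, 286 and 417 in ctrl cells, with a difference of 0.71 ± 0.14 (limma adjusted p = 0.00055). The highest of these ctrl values, 417, was that of the 12 h array that stood apart. Without that array the difference was 0.78 ± 0.15. Pkm differed by 0.20 ± 0.07 (adjusted p = 0.054), and by 0.13 ± 0.06 (adjusted p = 0.24) without the 12 h ctrl array. Hk2 (0.15), Pfkl (0.09), Ldha (0.05), Pgk1 (-0.01), Aldoa (-0.05), Slc16a3 (-0.07) and Slc2a1 (-0.13) were not called.

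**Figure D2:**
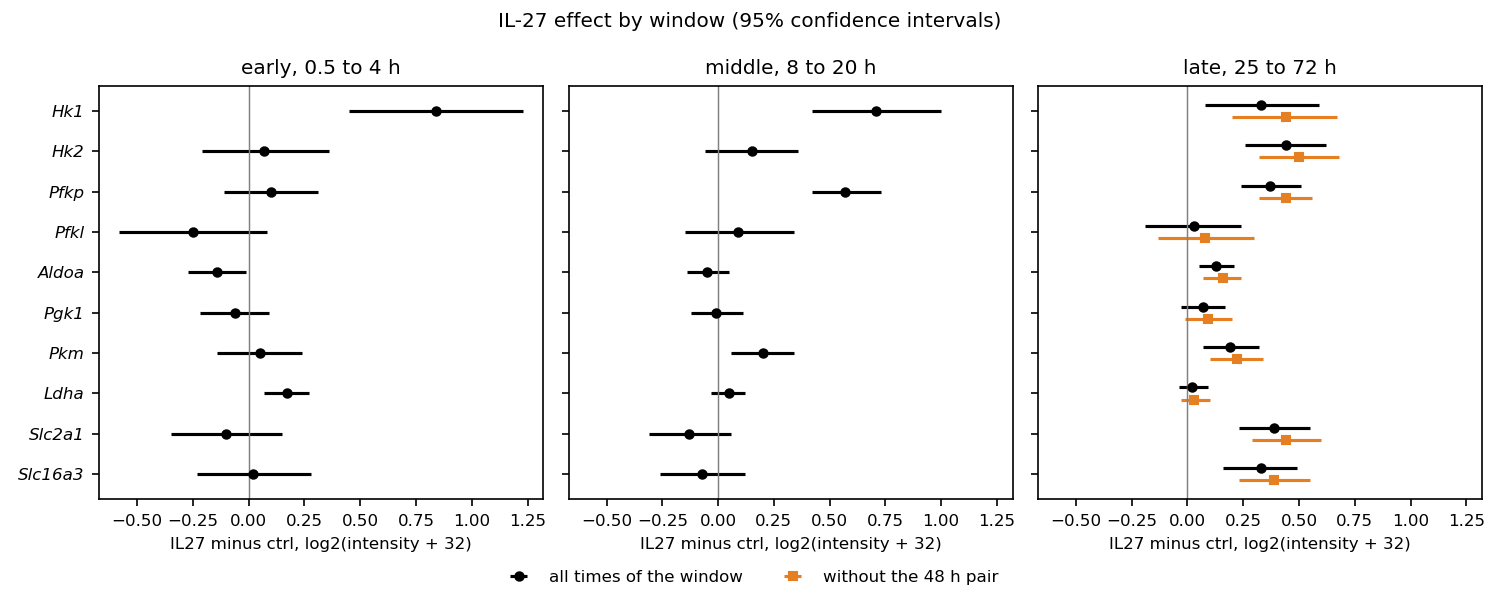
Difference between IL27 and ctrl cells per gene in the early, middle and late window (horizontal axis, log2(intensity + 32), bars are 95% confidence intervals from limma), with the late window also shown without the 48 h pair. Hk1 and Pfkp lie highest in the middle window (0.71 and 0.57), while in the late window Hk2, Slc2a1, Pfkp and Slc16a3 reach 0.33 to 0.44.

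In the late window both carriers, Hk2, Pfkp, Aldoa and Pkm were higher in IL27 cells. These are 6 of the 10 members, none was lower, the background was 18.5% of genes called (8.73% higher), and the median member difference was 0.26 against -0.01 over all genes. Hk2 had a lowest, median and highest intensity of 1238, 1760 and 2078 in IL27 cells, against 956, 1235 and 2393 in ctrl cells. The 2393 came from the 48 h array, and the next highest ctrl value was 1522. The difference of Hk2 was 0.44 ± 0.09 (SE, 12 arrays per arm, limma adjusted p = 0.0004).

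For Slc2a1 the corresponding values were 761, 2033 and 2791 in IL27 cells, against 763, 1374 and 2718 in ctrl cells, where 2718 was again the 48 h array. The arms began at the same level at 25 h, with 761 in the IL27 array and 763 in the ctrl array. At 72 h the IL27 arrays read 2701 and 2791 and the ctrl arrays 1495 and 1389, with no overlap. The late difference was 0.39 ± 0.08 (limma adjusted p = 0.00038).

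Slc16a3, the lactate exporter, had 16.3, 128 and 221 in IL27 cells, against 21.1, 86.0 and 187 in ctrl cells. At 25 h and 30 h the IL27 arrays read 16.3, 25.8 and 24.1 and the ctrl arrays 21.1, 30.4 and 21.2, which overlap. At 60 h the IL27 array read 219 and the ctrl array 88.0. The late difference of Slc16a3 was 0.33 ± 0.08 (limma adjusted p = 0.0032).

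Pfkp remained higher late, with 2026, 3332 and 4303 in IL27 cells, against 1277, 2532 and 4271 in ctrl cells (0.37 ± 0.07, limma adjusted p = 6e-05). Pkm (0.19 ± 0.06, limma adjusted p = 0.018) and Aldoa (0.13 ± 0.04, limma adjusted p = 0.023) differed by smaller amounts. Hk1 missed the threshold (0.33 ± 0.12, adjusted p = 0.054), as did Pgk1 (0.07 ± 0.05), Pfkl (0.03 ± 0.10) and Ldha (0.02 ± 0.03). The 95% interval of the Ldha difference was -0.04 to 0.09, with a median intensity of 9512 in IL27 cells and 9373 in ctrl cells.

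Without the 48 h pair 7 members were higher late (8.98% of genes higher), Hk1 being added with 0.44 ± 0.12 (limma adjusted p = 0.0055). Hk2 then differed by 0.50, Slc2a1 by 0.44, Pfkp by 0.44, Slc16a3 by 0.39, Pkm by 0.22 and Aldoa by 0.16. Without the 72 h arrays, and likewise without the arrays of suffix d, 3 members stayed called (Hk2, Pfkp and Slc2a1). Without 72 h Slc16a3 had 0.25 (limma adjusted p = 0.051), Pkm 0.14 and Aldoa 0.11. Without 54 h Pkm (0.16) and Aldoa (0.12) were not called.

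**Figure D3:**
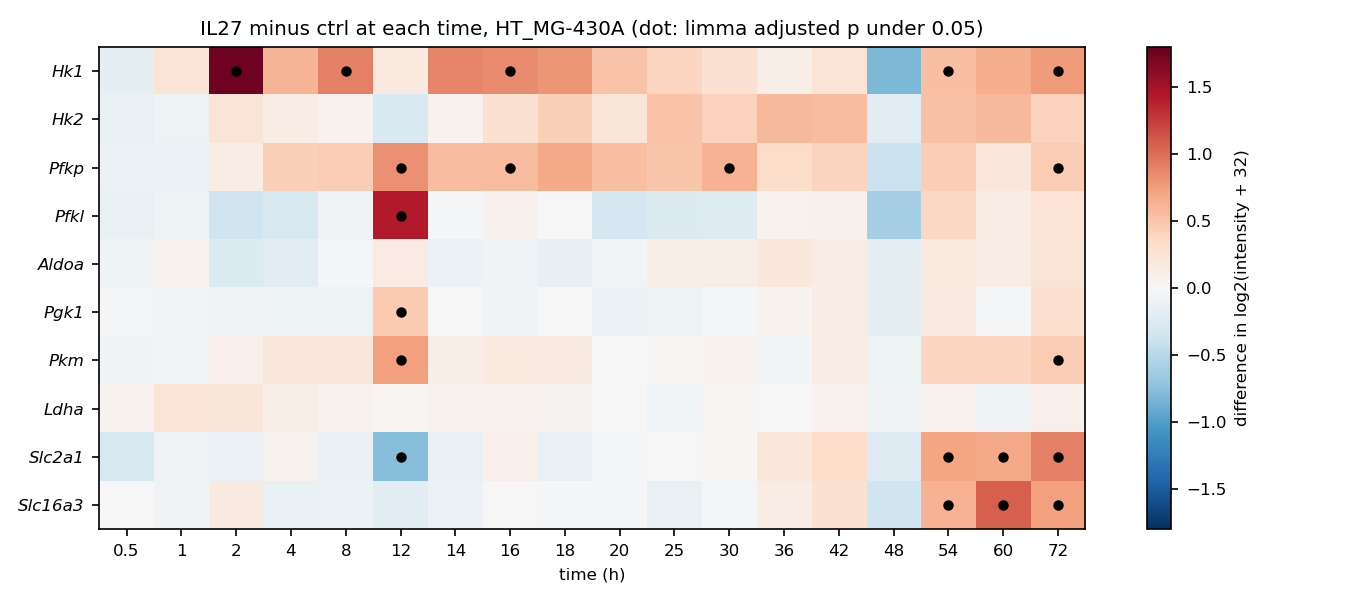
Difference between IL27 and ctrl cells on the log2(intensity + 32) scale for each gene (rows) at each of the 18 times (columns, h), red where IL27 is higher and blue where it is lower, with dots where the limma adjusted p at that time is under 0.05. Hk1 stands out from 2 h and Pfkp from 12 h, Slc2a1 and Slc16a3 from 54 h, and at 48 h all 10 genes are below 0 (-0.81 to -0.07).

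The growth of the difference can be followed time by time. At 36 h IL27 was above ctrl for 9 of 10 members, at 42 h for 10, at 54 h for 10, at 60 h for 8 and at 72 h for 10. The median member difference was 0.12 at 36 h, 0.20 at 42 h, 0.41 at 54 h, 0.29 at 60 h and 0.43 at 72 h. Where each arm has 2 arrays, both IL27 arrays lay above both ctrl arrays for 2 of 10 members at 2 h (9.17% of all genes), 3 at 8 h (11.9%), 5 at 16 h (21.5%) and 3 at 20 h (15.2%). Late, this held for 5 members at 30 h (24.8%), 6 at 42 h (17.6%), 9 at 54 h (25.4%, all but Ldha) and 9 at 72 h (19.3%, all but Pfkl). Both IL27 arrays lay below both ctrl arrays for 1 member at 2 h (23.3% of all genes), 3 at 8 h (11.1%), 2 at 16 h (28.0%) and 2 at 20 h (21.9%). At 30 h this held for 2 (19.8%, Pfkl and Pgk1), and for none at 42 h (28.2%), 54 h (27.0%) or 72 h (26.1%).

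Hk1 was called higher at 8 h (0.91, 0.181% of genes higher) and, with Pfkp, at 16 h (0.85, 0.963% of genes higher), and Pfkp at 30 h (0.62, 0.572% of genes higher). At 72 h 5 members were called higher (Hk1 0.76, Pfkp 0.45, Pkm 0.45, Slc2a1 0.91 and Slc16a3 0.74), against 5.81% of genes called higher. At 54 h they were Hk1, Slc2a1 and Slc16a3 (2.9% of genes higher), and at 60 h Slc2a1 and Slc16a3 (1.59% of genes higher). Slc16a3 reached its largest difference at 60 h, 1.07 ± 0.19 (limma adjusted p = 0.0016), and Slc2a1 at 72 h, 0.91 ± 0.10 (limma adjusted p = 1.6e-06). At 72 h Hk1 (0.76) lay just above Slc16a3 (0.74). From 25 h to 42 h Hk2 had larger differences (0.41 to 0.58) than either carrier, but Hk2 was not called at any single time.

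The 48 h pair ran the other way. At that time all 10 differences were negative, from -0.81 (Hk1, limma adjusted p = 0.05) to -0.07 (Ldha), and no member was called (2.32% of genes called). Hk1 read 904 in the IL27 array and 1613 in the ctrl array, Slc2a1 2319 and 2718, and Slc16a3 138 and 187. For Hk1 and Slc16a3 the IL27 value lies between those of 42 h and 54 h, and for all 3 genes the ctrl value exceeds every ctrl value at these neighbouring times. Across all 7163 genes the 48 h differences correlated with those at 42 h (r = 0.49) and at 54 h (r = 0.42), over genes that are not independent and with no shared arrays. Of 10 tested HIF targets outside glycolysis, 10 had their highest late ctrl value on this array. This held for 10.7% of all genes and 1 of 16 citrate cycle genes.

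At 12 h the ctrl array stood apart from all others. Pfkl (1.43), Pfkp (0.82), Pkm (0.74) and Pgk1 (0.47) were called higher and Slc2a1 (-0.76) lower, at a time when 22.8% of all genes were called higher and 21.1% lower. Pfkl read 276 in the IL27 array and 82.3 in the ctrl array, while its other middle ctrl values lay between 241 and 372. Slc2a1 read 837 and 1434, with other middle ctrl values between 601 and 718. Pfkp read 2153 and 1210, and its difference was 0.54 to 0.68 at the times from 14 h to 20 h.

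Whether the difference itself changed with time was tested as the late minus the early effect. Slc2a1 gained 0.49 ± 0.15 (limma adjusted p = 0.035) and Aldoa 0.27 ± 0.08 (0.023), 2 of 10 members higher and none lower, against 7.09% of genes called (3.48% higher). Pfkp gained 0.34 (limma adjusted p = 0.034) when the 48 h pair was left out, with 3.77% of genes higher. For Hk1 the change was -0.51 ± 0.23 (adjusted p = 0.20), and 0.10 without the 2 h arrays. Without 2 h, or without the arrays of suffix d, no member was called. With the title suffix as a block Slc2a1 lost its call (0.49, limma adjusted p = 0.054), while Aldoa kept it (0.27, 0.012) and Ldha was lower (-0.15, 0.018).

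Other probe sets of the same genes gave like values. Among the 20 probe sets 12 were higher in IL27 cells late and none was lower, against 7.55% of all probe sets tested higher. The second Hk1 probe set differed by 0.81 early (limma adjusted p = 0.024), 0.66 in the middle window and 0.40 late (limma adjusted p = 0.033), so Hk1 was called late on one of its 2 probe sets. All 3 Slc2a1 probe sets were called late, with 0.39 to 0.43. Of 3 Pgk1 probe sets 1 was called late (0.18, limma adjusted p = 0.024), of 4 Aldoa probe sets 2 were called (0.13 and 0.19), and neither Pfkl probe set was (0.03 and 0.00). Some probe sets carry the suffix x_at, which Affymetrix gives to sets that may bind related transcripts.

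**Figure D4:**
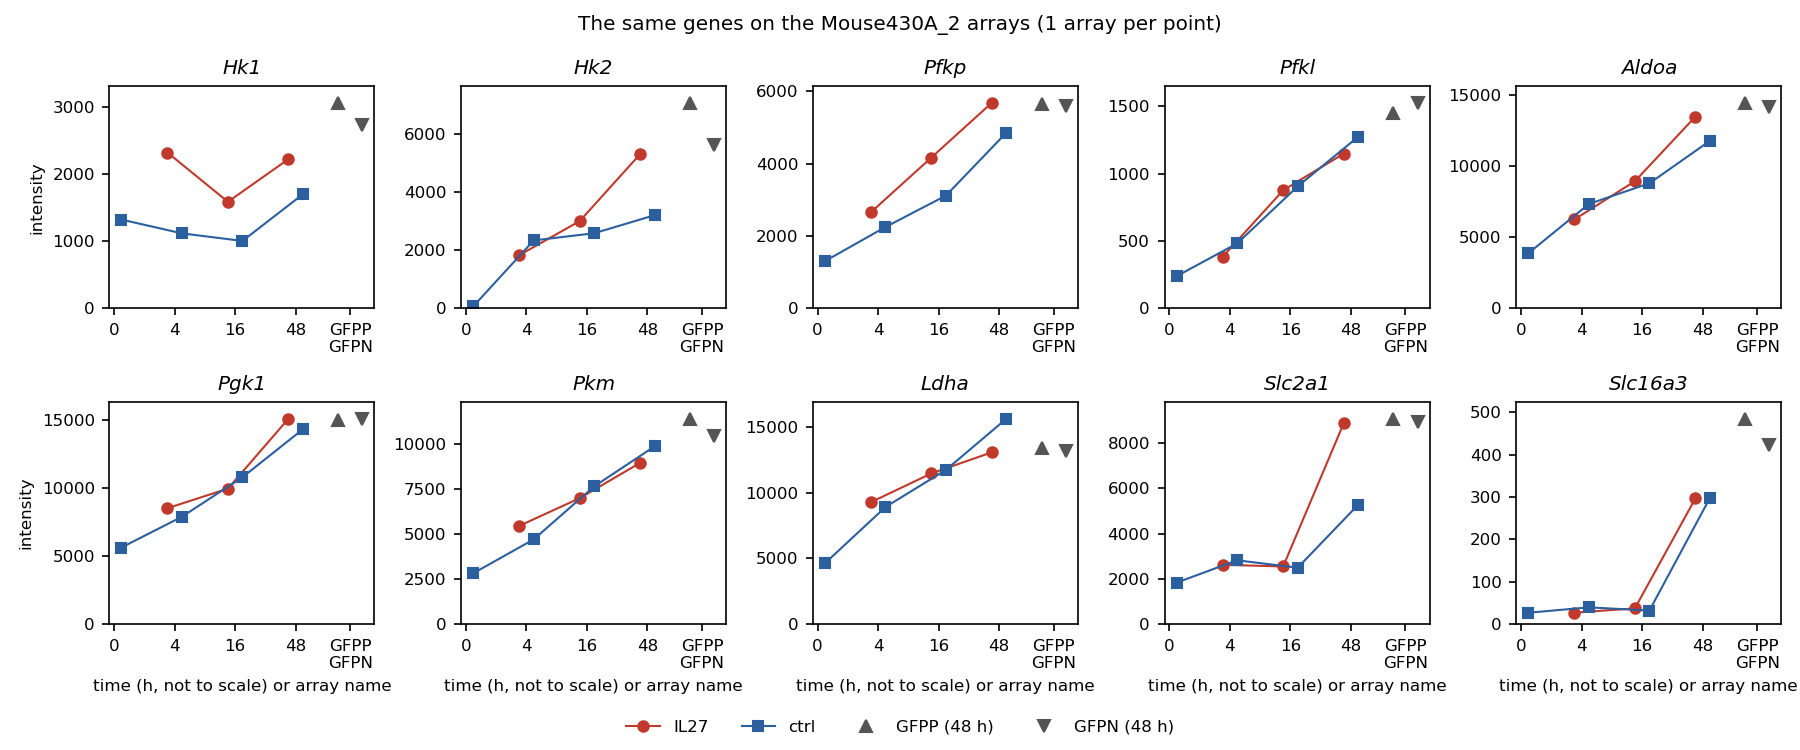
Intensity (linear axis from 0) of the 10 genes on the 9 Mouse430A_2 arrays against time in h (evenly spaced, not to scale), 1 array per point, with IL27 in red left of ctrl in blue at 4, 16 and 48 h, ctrl at 0 h, and GFPP and GFPN in grey. Hk1 is higher in IL27 at all 3 times, and at 48 h Slc2a1 and Hk2 are at 8871 and 5316 in IL27 against 5277 and 3207 in ctrl.

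The Mouse430A_2 arrays served as a check on the other array type, normalized separately. Hk1 was higher in the IL27 array at each time, with 2324 against 1117 in ctrl at 4 h, 1588 against 1004 at 16 h and 2226 against 1703 at 48 h. Its difference over the 3 times was 0.69 ± 0.15 (limma adjusted p = 0.24, n = 3 arrays per arm). None of the 9 members tested was called, nor any of the 6509 genes (0.0%), and with 3 pairs the precision is low. At 4 h Hk1 was the one member at least 2-fold higher, beside 1.06% of all genes.

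At 48 h these arrays showed Slc2a1 at 8871 in IL27 and 5277 in ctrl, Hk2 at 5316 and 3207, and Pfkp at 5684 and 4858. Slc16a3 read 297 in IL27 and 298 in ctrl. In all, 6 of 10 members were above ctrl at that time, where the HT_MG-430A pair had none. The 95% intervals of the effect over the 3 times were wide, as -0.16 to 0.61 for Slc2a1 and -0.24 to 0.63 for Hk2.

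The 0 h array is the only one of cells before culture. Hk2 read 3207 in ctrl cells at 48 h and 60.4 at 0 h, and Slc16a3 298 and 27.0. From 0 h to 48 h 9 of 10 ctrl values rose at least 2-fold, against 17.2% of all genes, with a median member log2 ratio of 1.77 against 0.01 over all genes; Hk1 was the exception at 0.36. GFPP and GFPN differed by -0.07 to 0.33 over the 10 members, with Hk2 the highest at 7086 in GFPP and 5616 in GFPN, and these are single arrays without a test.

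**Figure D5:**
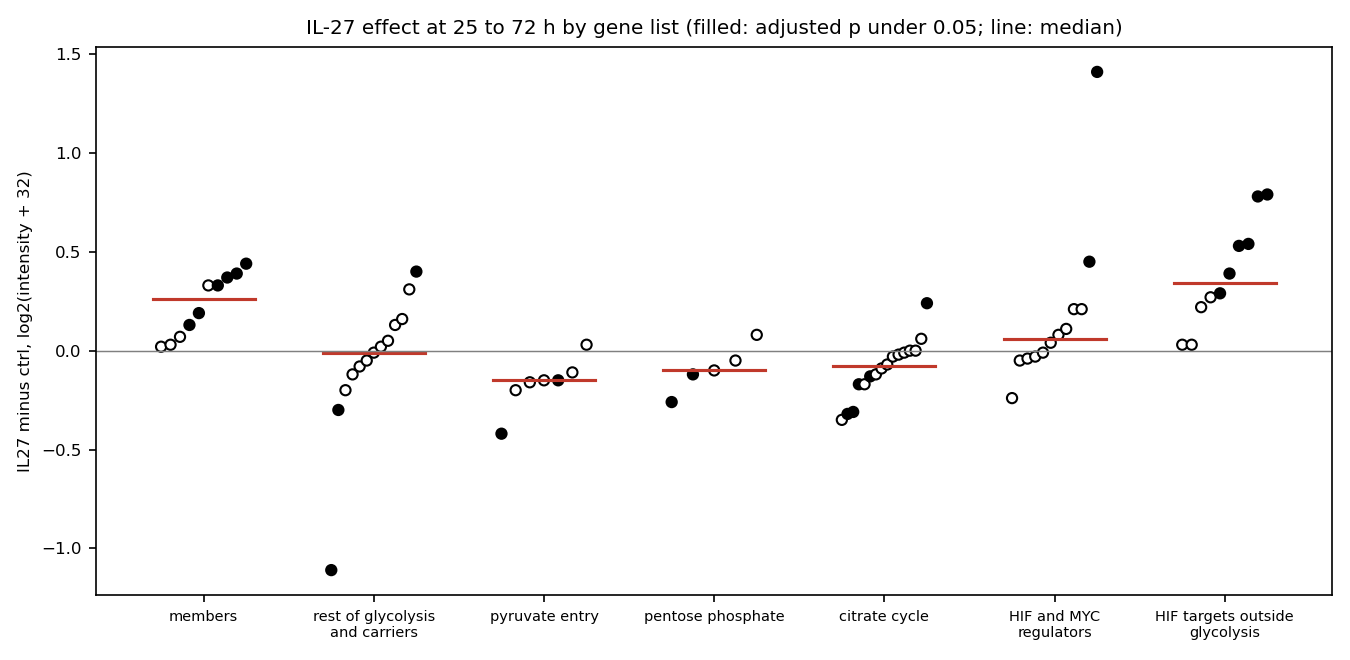
Late difference between IL27 and ctrl cells (vertical axis, log2(intensity + 32)) for the 10 members and 6 further gene lists, with a point per tested gene, filled where the limma adjusted p is under 0.05, and a red line at each list's median. The medians are 0.26 for the members, -0.01 for the rest of the pathway and 0.34 for HIF targets outside glycolysis.

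Those other genes of the pathway that were tested were called late in both directions, at a share near the background. Of 33 further genes of glycolysis and of glucose and lactate carriage 13 were tested, and late 1 was higher and 2 were lower (23.1% called, against 18.5% of all genes), with a median of -0.01. The higher one was Slc2a3, a high-affinity glucose carrier (0.40 ± 0.13, limma adjusted p = 0.031), with a mean of 3694 in IL27 cells and 2603 in ctrl cells. Both lower ones were enolases, and Eno1, a further enolase of the list, was not tested. Eno3, the muscle-type enolase, averaged 293 ± 56.7 in IL27 cells and 696 ± 256 in ctrl cells (SD, n = 12 arrays), a difference of -1.11 ± 0.14 (limma adjusted p = 7.3e-08), and Eno2, the neuronal type, differed by -0.30 ± 0.08 (limma adjusted p = 0.0064).

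The other 10 tested genes of the pathway list were not called late. Aldoc (0.31), Bsg (0.16), which chaperones lactate carriers to the membrane, Pfkfb3 (0.13), Slc16a1 (0.05), another lactate carrier, Tpi1 (0.02) and Pfkm (-0.01) were among them, with Adpgk (-0.05), Bpgm (-0.08), Slc2a8 (-0.12) and Ldhb (-0.20). Without the 48 h pair Aldoc was called too. From early to middle 3 of the 13 rose in IL27 cells and 4 in ctrl cells, with medians of 0.05 and 0.06, against 37.4% and 35.8% of all genes higher. From middle to late 7 rose and 2 fell in IL27 cells, and 8 rose and 2 fell in ctrl cells. In that step of the ctrl arm Slc2a3 rose by 2.11 and Tpi1 by 1.75, while Slc16a1 (-0.44) and Adpgk (-0.29) fell. The genes of this list that were not tested, among them Gapdh, Eno1, Pgam1 and Gpi1, are not analysed here.

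Of the pyruvate entry, citrate cycle and pentose phosphate genes, all that were called late except Suclg1 were lower in IL27 cells. Over all genes 18.5% were called late, and 9.77% were lower. Late, 2 of 7 pyruvate entry genes were lower in IL27 cells, the mitochondrial pyruvate carrier Mpc1 (-0.42 ± 0.07, limma adjusted p = 1.2e-05) and the pyruvate dehydrogenase subunit Pdhb (-0.15 ± 0.05). Of 16 citrate cycle genes 4 were lower (Fh1 -0.31, Idh2 -0.32, Dlst -0.17, Sucla2 -0.13) and Suclg1 was higher (0.24). Of 5 pentose phosphate genes Rpia (-0.26) and Tkt (-0.12) were lower. From the early to the middle window of ctrl cells 15 of 16 citrate cycle genes, 5 of 5 pentose phosphate genes and 4 of 7 pyruvate entry genes rose, against 35.8% of all genes. The lists were not tested against each other.

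Among 12 regulators of HIF and MYC activity, 3 were higher in IL27 cells in the middle window (25.0% called, against 10.7% of all genes) and 2 late (16.7%, against 18.5%). Without the 48 h pair 5 were higher late (Egln1, Egln3, Hif1a, Mxi1 and Vhl) and none was lower, with 8.98% of all genes higher. Egln3, a prolyl hydroxylase that marks HIF for destruction and is itself a HIF target, averaged 426 ± 212 in IL27 cells and 33.2 ± 17.3 in ctrl cells in the middle window (SD, n = 9 arrays), a difference of 2.67 ± 0.19 (limma adjusted p = 4.2e-12). Late the difference was 1.41 ± 0.17. Hif1a, the regulated HIF subunit, was higher by 0.54 ± 0.07 in the middle window and by 0.45 ± 0.06 late (limma adjusted p = 1.5e-07), and Max, the partner of MYC, by 0.79 ± 0.11 in the middle window. Myc itself differed by 0.10 ± 0.12 in the middle window and by -0.24 ± 0.10 late, neither of them called. The late minus early contrast called none of the 12. Without the 48 h pair it called Myc lower (3.62% of all genes lower), and likewise without the 12 h ctrl array.

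Of 10 HIF targets outside glycolysis 6 were higher late and none lower, with a median of 0.34, against 8.73% of all genes higher. None was called early (2.32% of all genes called) or in the middle window (10.7%). The late minus early contrast called 1 of the 10 higher (3.48% of all genes higher), and 5 of the 10 without the 48 h pair (3.77%). Ero1a (0.79 ± 0.15, limma adjusted p = 0.00015), an oxidase of the endoplasmic reticulum, Ndrg1 (0.78 ± 0.18), the mitophagy receptor Bnip3 (0.53 ± 0.15) and Vegfa (0.29 ± 0.09), an angiogenic growth factor, were among the 6 higher late. Without the 48 h pair 8 were higher late, against 8.98% of all genes. Without the 72 h arrays 2 were higher late (Ero1a and Ndrg1), and without the arrays of suffix d 1 was (Ero1a). For these 2 fits, which have fewer arrays, the share of all genes called is not given here.

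Members resembled each other to different degrees over the 52 arrays. Pgk1 and Pkm each correlated at 0.96 with the mean of the members, and Hk1 at 0.63, the lowest. Slc2a1 was closest to Slc16a3 (r = 0.92), Hk2 to Ldha (r = 0.94) and Aldoa to Pgk1 (r = 0.97). Outside all lists the 8 genes most like the member mean were Eif4ebp1 (r = 0.96), Gzmb (0.947), Ufsp2 (0.944), Ak4 (0.943), Chchd10 (0.943), Dusp22 (0.941), Xpnpep1 (0.932) and Bcl2l2 (0.932). These correlations describe arrays that share a time course and carry no test.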

How the data were processed

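The authors' deposited tables, one per array type, hold a linear intensity per probe set and array; per the submitters' processing notes MAS5 was used (version, scaling and settings not given in the sources used here). Per the labels, biotinylated cRNA was made from 6 µg of total RNA. From there, log2(intensity + 32) was tested with limma 3.58.1 in R 4.3.3, with an intensity trend and Benjamini-Hochberg adjustment over all genes. Gene names came from the platform tables. Probe sets of several genes (942) or none (1511) were left out. Genes exceeding the median of the array in 5 or more arrays (3 on Mouse430A_2) were kept.

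For the IL-27 effect, each time had a term of its own and the arm 1 coefficient per window, or 1 over all times. The spread of these fits includes how far the difference between the arms varied between times. The course within an arm was fitted with a mean per arm and window, so its spread includes variation between the times of a window. Single times were fitted with a mean per arm and time, with the spread estimated where an arm had 2 arrays at a time (8 times). Arrays were grouped by title. No array pair held identical values. Members, lists and tests were chosen with earlier results of these data known. All 10 members are named throughout, and of the lists up to 4 called genes per window. For the late IL-27 effect every tested gene of the pathway list is named. Late, the fit recovered 92% of 100 simulated differences of 0.5 (log2), with 11 false calls among the unchanged of 7163 genes. Each simulated difference was the same on every late IL27 array. Measured late differences varied between times, and the recovery of such differences was not tested. Alternatives were other pseudocounts (1 and 100), filters, probe set averaging, quantile normalization, a suffix block, and arrays or times left out. Leaving out each time in turn was chosen after seeing the data.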

Additional observations from a re-analysis of the deposited data

Results flagged for a closer look

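In 7 cases a single array lay far from the others of its arm and window, or on Mouse430A_2 of its arm over all times. Such groups numbered 50, and chance marks about 1 in 20 groups of like arrays. Early, Hk2 in the ctrl arm was highest at 4 h (452), Pfkp in the IL27 arm lowest at 0.5 h (794) and Slc16a3 in the IL27 arm highest on one 2 h array (30.3). In the middle window the 12 h ctrl array was lowest for Pfkl (82.3) and highest for Slc2a1 (1434). On Mouse430A_2 the ctrl arm had its lowest Hk2 value at 0 h (60.4) and its highest Slc16a3 value at 48 h (298). The times within a group differ by design, so that rate does not carry over to these groups. The part of time in these gaps was not tested.

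The IL-27 effect of 2 members differed between windows by the limma contrast of late minus early, Slc2a1 by 0.49 and Aldoa by 0.27.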

How the results depend on the processing

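The counts of called members over all times, in both steps of each arm, at single times and per probe set stayed within 1.5 times their value under every alternative run for them. Early, 2 members were called, and 1 was with a pseudocount of 1, no filter, genes above the median mean value, quantile normalization, without the 48 h pair or when single-time contrasts were averaged, and 0 without suffix d (0 to 2 with each time left out, 0 without 2 h). The middle count of 2 was 4 when single-time contrasts were averaged. The late count of 6 was 3 without suffix d and 3 to 7 with each time left out, lowest without 72 h. The late minus early count of 2 was 1 without a filter, with all probe sets averaged or with single-time contrasts averaged, 0 without suffix d and 0 to 3 with each time left out. It was 0 without 2 h and 1 without 1, 4, 42, 54, 60 or 72 h. On Mouse430A_2 the count of 0 was 1 (Hk1) without 48 h, and 0 to 1 with each time left out. These counts stand without the share of all genes called in the same fits.

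Some uncalled differences changed sign. Early, Slc16a3 was -0.06 without suffix d and -0.01 with single-time contrasts averaged. In the middle window Pfkl was -0.07 without the 12 h ctrl array, Aldoa 0.06 with all probe sets averaged, and Pgk1 0.05 without suffix d and 0.03 with single-time contrasts averaged. Late, Pfkl was -0.04 without suffix d and -0.02 with single-time contrasts averaged. On Mouse430A_2 Pgk1 was -0.02 with all probe sets averaged and Pkm 0.01 with quantile normalization. With each time left out, Hk2 early ran from -0.03 to 0.13, Slc16a3 early from -0.06 to 0.06, Pfkl from -0.07 to 0.21 (middle) and -0.04 to 0.08 (late), Pgk1 middle from -0.06 to 0.02, Hk1 late minus early from -0.76 to 0.1, and Slc16a3 in ctrl cells (middle minus early) from -0.04 to 0.01. On Mouse430A_2 such ranges were -0.07 to 0.47 (Hk2), -0.02 to 0.09 (Pgk1), -0.13 to 0.04 (Pkm), -0.15 to 0.01 (Ldha) and -0.04 to 0.39 (Slc2a1). The cause was not tested.

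The labels do not say what the title suffix marks. Deviations of same-suffix arrays correlated at 0.23 to 0.76 at 7 of the 8 times with paired arrays and at -0.01 at 30 h; whether they share a batch cannot be read from the labels. With it as a replicate block, 5 members were called over all times, 2 early, 3 in the middle window, 6 late and 2 late minus early (Aldoa higher and Ldha lower, with Slc2a1 no longer called). The share of all genes called with this block is not given here.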
